A study of Mus musculus with 2 samples.

Results

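The miR-30 and miR-26 families were followed in the small RNA of testicular extracellular vesicles (EVs), the membrane-bound particles that cells of the testis release. Members were taken by name: every entry of the deposited tables in the classes mature or hairpin that names mmu-miR-30a, mmu-miR-30b, mmu-miR-30c, mmu-miR-30d, mmu-miR-30e, mmu-miR-26a or mmu-miR-26b, where mmu stands for mouse, with both arms of the hairpin. This gave 15 entries, 11 of miR-30 and 4 of miR-26, of the 525 known mouse miRNA entries and 27065 entries in all that both tables list. The study had 1 condition. EVs from the testes of adult male C57/BL6 mice, aged 8 weeks by the methods, were isolated on a membrane affinity column and digested with proteinase K and RNase A before their small RNA was sequenced in 2 libraries. Neither labels nor methods tell if each library had its own animals or isolation, so their spread may be technical, and no test between conditions was made. No untreated EVs, whole testis or blank library was analysed here.

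A miRNA is cut from an RNA hairpin, and either arm of it, 5p or 3p, can be loaded into an Argonaute protein, which then represses messenger RNAs that pair with the seed near the 5′ end of the miRNA. The 5p arms of miR-30 share a seed, and the family is abundant in many epithelia and in heart and kidney, with known targets such as Snai1, a transcription factor of epithelial-mesenchymal transition. The 5p arms of miR-26 share another seed and are known to repress Ezh2, the histone methyltransferase of Polycomb complex PRC2. The miR-26 hairpins lie in genes of small C-terminal domain phosphatases, which have been described as acting with miR-26 in the same pathways.

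The mature sequences are printed to show which entries share a seed and how few bases separate some of them. Of the 15 entries, 11 matched the RefSeq table by name (build GRCm38.p6), and miR-30b-5p, miR-30b-3p, miR-30d-5p and miR-30d-3p are named only. Sequences run 5′ to 3′ with bases 2 to 8, the seed, in capitals, and miR-384-5p is added as the listed miRNA outside both families with the seed of the miR-30 5p arms.
miR-26a-5p: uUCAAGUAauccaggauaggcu
miR-26b-5p: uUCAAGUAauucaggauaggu
miR-30a-5p: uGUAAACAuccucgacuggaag
miR-30e-5p: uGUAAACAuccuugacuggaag
miR-30c-5p: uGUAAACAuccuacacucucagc
miR-384-5p: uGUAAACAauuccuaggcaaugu
miR-30a-3p: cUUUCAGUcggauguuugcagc
miR-30e-3p: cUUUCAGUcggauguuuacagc
miR-30c-1-3p: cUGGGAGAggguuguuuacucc
miR-30c-2-3p: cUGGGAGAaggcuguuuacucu
miR-26b-3p: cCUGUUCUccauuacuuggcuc
miR-26a-2-3p: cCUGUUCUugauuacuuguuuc

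Counted from 1 at the 5′ end, the substitution C13U separates miR-30a-5p from miR-30e-5p, and G18A separates miR-30a-3p from miR-30e-3p, with the base of miR-30a first. Between miR-26a-5p and miR-26b-5p there are 2 differences over 21 bases, C11U and C21U, with the base of miR-26a first. How many mismatches a mapped tag could carry was not given in the sources used here, so the split of tags between such close members is uncertain. In contrast, miR-30a-5p and miR-30c-5p differ at 5 of 22 bases and miR-30c-1-3p and miR-30c-2-3p at 3 of 22.

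The genes of the matched members lie on 4 chromosomes, and the positions given here are those of RefSeq on GRCm38.p6. On chromosome 1, Mir30a (chr1:23272269-23272339, plus strand) lies outside other annotated genes and Mir30c-2 (chr1:23291701-23291784, plus strand) on an exon of the lincRNA Gm27028 by GENCODE M21, with 19361 bp between them. On chromosome 4, Mir30e (chr4:120772606-120772697) and Mir30c-1 (chr4:120769534-120769622) lie 2983 bp apart on the minus strand in introns of Nfyc, which encodes a subunit of the transcription factor NF-Y. Mir26b (chr1:74394310-74394394, plus strand) lies in an intron of Ctdsp1 and Mir26a-1 (chr9:119031796-119031885, plus strand) in an intron of Ctdspl. Mir26a-2 (chr10:126995530-126995613, plus strand) overlaps an exon of Ctdsp2, and all of these host genes are read on the strand of their miRNA. Since both Mir30c genes give the same 5p arm and both Mir26a genes give the same 5p arm, the entries miR-30c-5p and miR-26a-5p each sum over 2 genes. The hairpins of Mir30a and Mir30e are printed with both mature arms in capitals. As listed, the entries of miR-30a had nearly equal counts of both arms and those of miR-30e mainly of the 3p arm.
Mir30a: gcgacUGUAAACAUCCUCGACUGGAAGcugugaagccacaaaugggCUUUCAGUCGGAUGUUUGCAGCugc
Mir30e: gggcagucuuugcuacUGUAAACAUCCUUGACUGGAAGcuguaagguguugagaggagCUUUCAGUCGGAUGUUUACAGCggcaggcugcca

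The listed counts summed to 21970654 in library 1 and 24829208 in library 2, and known mouse miRNA entries held 3.14% and 2.25% of them. Levels below are counts per 1000000 listed counts (CPM), a share of all listed tags with no correction for length. All intervals are exact 95% Clopper-Pearson intervals of the counts within or between these libraries and cover counting error only. All 14 miRNAs of an X-linked, testis-expressed list were present, at 5792 and 4166 CPM in sum (libraries 1 and 2). So were 3 of 3 germ cell miRNAs (miR-34b, miR-34c and miR-449a) at 956 and 987 CPM. The gonadal somatic miR-202 had 414 and 373 CPM. As the marker lists were chosen with earlier results of these data known, their presence does not test the tissue label. Lists of other cell types were present too, with 650.4 and 381 CPM for red blood cells, led by miR-451a, 585 and 424 CPM for smooth muscle, 114 and 67.3 CPM for leukocytes and 8.37 and 3.50 CPM for the liver miRNA miR-122. The cells that released the members were not tested. In such a bulk preparation, more vesicles from a cell type and more copies per vesicle cannot be told apart.

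Both families were present in both libraries, and together they held 2.53% of known miRNA counts in library 1 (2.50 to 2.57) and 2.54% in library 2 (2.50 to 2.58). The 4 miR-26 entries summed to 465 and 274 CPM in libraries 1 and 2 and averaged 369.6 ± 135 CPM (SD, n = 2). The 11 miR-30 entries summed to 329 and 297 CPM and averaged 313 ± 22.8 CPM. The families changed places between the libraries: miR-30 had 0.708 counts per count of miR-26 in library 1 (0.687 to 0.730) and 1.08 in library 2 (1.05 to 1.12). Each difference exceeded counting error in its own library, and as they point opposite ways, no order of the families held in both. The let-7 family, with miR-98, had 11.2 times the counts of both families in library 1 and 11.6 times in library 2, and the miR-181 family also exceeded them, the members having 0.635 and 0.651 counts per count of miR-181.

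**Figure D1:**
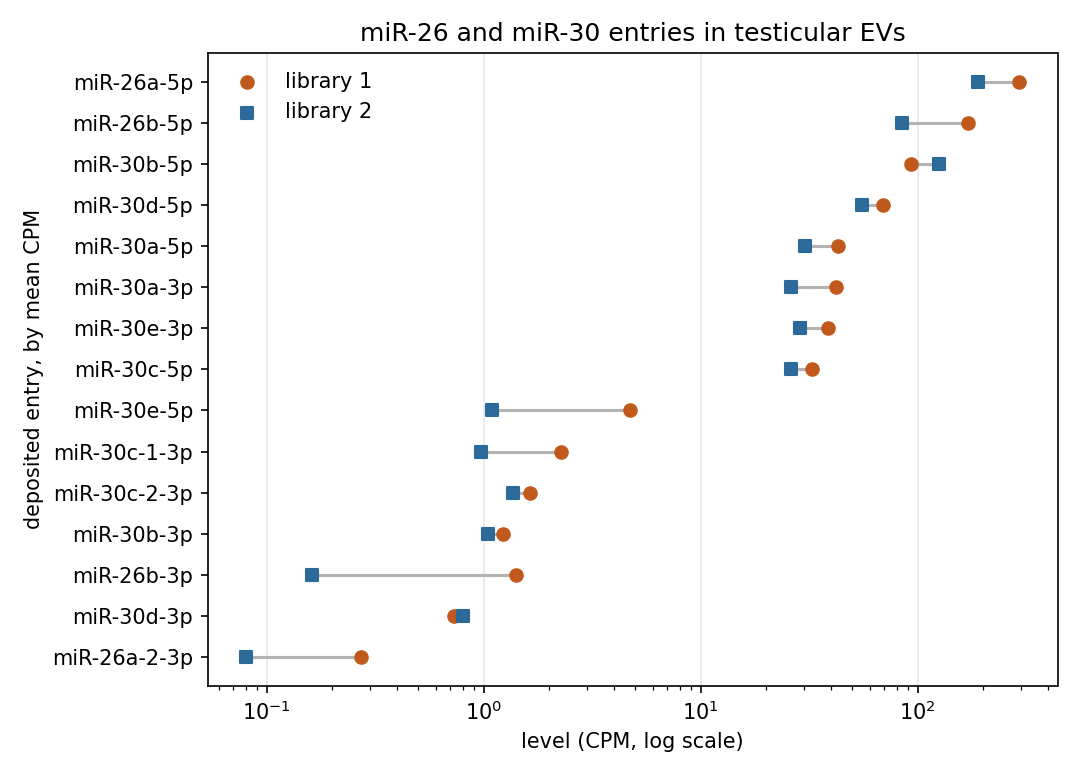
Level of each of the 15 entries in CPM (log axis), with a circle for library 1, a square for library 2 and a line between them, ordered by mean CPM. Of the 8 highest entries, all but miR-30b-5p had the higher level in library 1, and no entry lies between miR-30c-5p (32.6 and 25.98 CPM) and miR-30e-5p (4.73 and 1.09 CPM).

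The most abundant member was miR-26a-5p, with 6426 counts in library 1 and 4695 in library 2, or 292 and 189 CPM. It ranked 22 and 24 among the 525 known miRNA entries. The next by mean level, miR-26b-5p, had 3756 and 2103 counts, or 171 and 84.7 CPM, and ranked 31 and 43. In both libraries miR-26a-5p was therefore the higher of the pair, with 1.71 times the counts of miR-26b-5p in library 1 (1.64 to 1.78) and 2.23 times in library 2 (2.12 to 2.35). The order held in both libraries, and the ratio itself differed between them by more than counting error. The 3p arms of this family were close to the floor of the data. There were 31 and 4 counts of miR-26b-3p and 6 and 2 of miR-26a-2-3p. No entry named miR-26a-1-3p was found among the known miRNA entries listed for both libraries.

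Among miR-30 entries, miR-30b-5p led with 2041 counts in library 1 and 3116 in library 2, or 92.9 and 125 CPM. It ranked 58 and 32 among known miRNA entries, and it made up 28.2% and 42.2% of the miR-30 counts. The second, miR-30d-5p, had 1526 and 1380 counts, or 69.5 and 55.6 CPM, and ranked 66 and 61. In both libraries miR-30b-5p was the higher, by 1.34 times in library 1 (1.25 to 1.43) and 2.26 times in library 2 (2.12 to 2.41). Next came miR-30a-5p with 43.0 and 30.2 CPM, miR-30a-3p with 42.0 and 25.98 CPM, miR-30e-3p with 38.8 and 28.6 CPM, and miR-30c-5p with 32.6 and 25.98 CPM. The ranges of neighbouring entries overlap within this group of 4. Within each library, miR-30a-5p was above miR-30a-3p and miR-30e-3p above miR-30c-5p, while miR-30a-3p and miR-30e-3p changed places.

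The remaining miR-30 entries were all well below miR-30c-5p in each library. The highest of these, miR-30e-5p, had 104 and 27 counts, or 4.73 and 1.09 CPM. Next were the 3p arms of both Mir30c genes, with 50 and 24 counts of miR-30c-1-3p and 36 and 34 of miR-30c-2-3p. The 3p arms of the other members were as low, with 27 and 26 counts of miR-30b-3p and 16 and 20 of miR-30d-3p. Unlike the shared 5p arm, these 3p arms tell the Mir30c genes apart. Per count of miR-30c-2-3p there were 1.39 of miR-30c-1-3p in library 1 (0.887 to 2.19) and 0.706 in library 2 (0.4005 to 1.23), so at this depth no difference between the genes was detectable. Over all 15 entries, 14 held a mean of at least 10 counts and 13 had at least 10 in both libraries. Ranges overlapped for 8 of the 14 pairs of neighbours in the order of mean level, and 9 of the 14 pairs had the same order in both libraries.

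**Figure D2:**
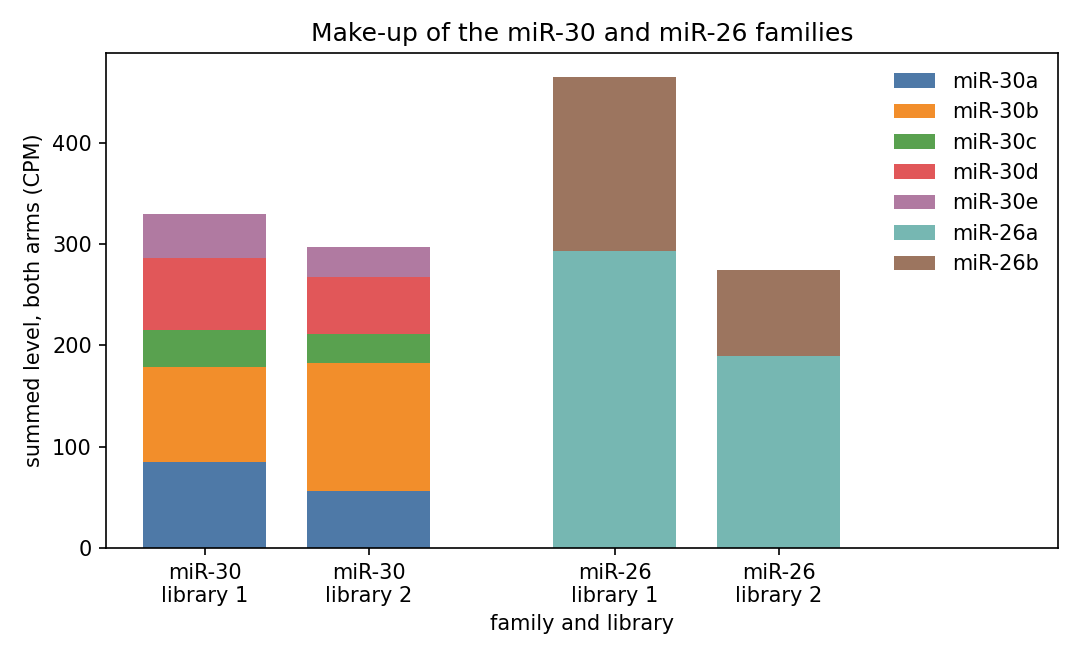
Summed level of both arms (CPM) of each miRNA, stacked by family, with a bar for each library. The miR-26 bar is 465 CPM in library 1 and 274 CPM in library 2, while the miR-30 bars are 329 and 297 CPM, and miR-30b is the only segment of more CPM in library 2.

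By arm, miR-26 was almost wholly 5p, with 99.6% of its counts in library 1 (99.5 to 99.7) and 99.9% in library 2 (99.8 to 99.97). For miR-30 the 5p share was 73.7% (72.7 to 74.7) and 80.2% (79.3 to 81.1). Within the family, 3 patterns were seen. In miR-30b the 5p share was 98.7% and 99.2%, in miR-30d 98.96% and 98.6%, and in miR-30c, its 3p arms summed, 89.3% and 91.7%. These are the hairpins with a dominant 5p arm. In miR-30a the arms were nearly equal, with 945 counts of 5p and 922 of 3p in library 1 and 750 and 645 in library 2. The 5p share of miR-30a was 50.6% in library 1 (48.3 to 52.9), an interval that includes 50%, and 53.8% in library 2 (51.1 to 56.4). In miR-30e the 3p arm dominated, with 852 counts against 104 of the 5p arm in library 1 and 709 against 27 in library 2.

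For comparison, 97 known miRNAs had both arms listed and at least 100 counts over both arms in each library, the 7 members among them. Their major arm held a median of 97.0% in library 1 and 96.8% in library 2. Only miR-30a and miR-28a, which was named after its value was seen, had a major arm under 60% in both libraries, or 2.06% of the 97. The 3p arm held more counts than the 5p arm in both libraries, by any margin, for 35 of the 97, or 36.1%. Besides miR-30e, these include miRNAs with a smaller 3p majority, such as miR-743a, whose 5p share was 44.3% and 36.1%.

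The near-identity of the arms of miR-30a and miR-30e touches these shares. Per count of miR-30e-5p there were 9.09 of miR-30a-5p in library 1 and 27.8 in library 2, while their 3p arms were nearly equal, with 1.08 counts of miR-30a-3p per count of miR-30e-3p in library 1 (0.985 to 1.19) and 0.910 in library 2 (0.816 to 1.01). Summed over both miRNAs, a value that a swap of tags between them leaves as it is, the 5p share was 37.2% (35.4 to 39.0) and 36.5% (34.4 to 38.5) in libraries 1 and 2. The arms of miR-30a also stand in different classes of the tables, the 5p arm under hairpin and the 3p arm under mature. Both arms of miR-30e are under hairpin. In all, 10 entries are of the class mature and 5 of the class hairpin, which holds miR-26a-5p, miR-30d-5p and miR-30a-5p besides. No source used here tells how an entry named for an arm came under hairpin.

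**Figure D3:**
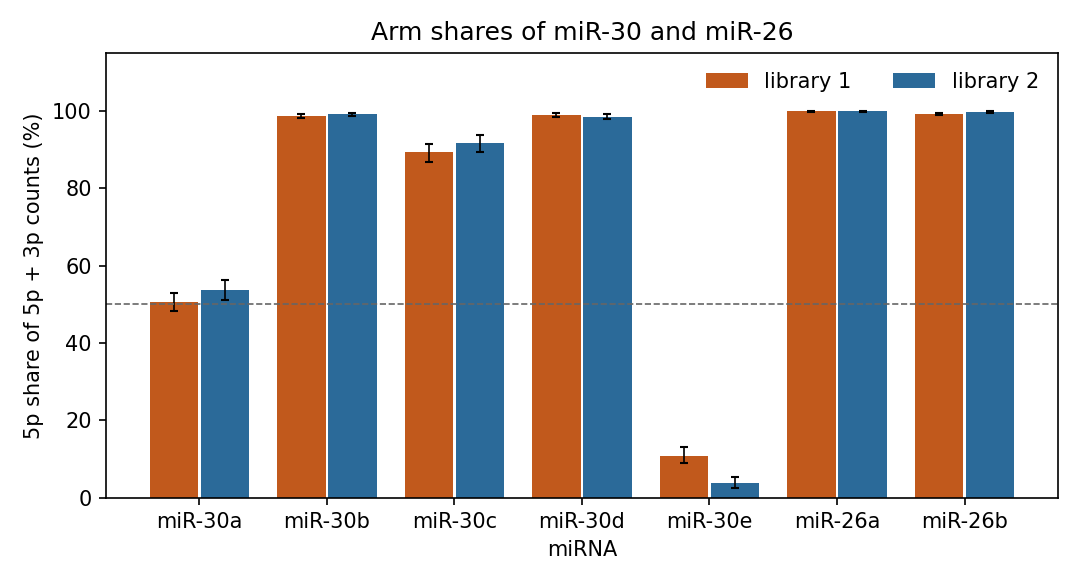
Share of the 5p arm in the counts of both arms (percent) for each miRNA, with a bar for each library and exact 95% intervals of counting error, and a dashed line at 50%. In 5 of the 7 miRNAs the 5p arm held at least 89.3% in both libraries, in miR-30a it held 50.6% and 53.8%, and in miR-30e 10.9% and 3.67%.

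Between the libraries, 12 of the 14 entries of mean count 10 or more had the higher CPM in library 1, and 7 of the 14 when scaled to known miRNA counts, where 48.7% of known miRNA entries did. Of all 433 known miRNA entries at this minimum, 77.8% had the higher CPM there. The median log2 ratio of library 1 over library 2 was 0.48 in the members and 0.45 in known miRNA entries, so the members lay close to their class. Differences over 2-fold were seen in 4 of the 14 members, all higher in library 1, where 35.1% of known miRNA entries were over 2-fold apart in either direction and 28.6% were higher in library 1. These 4 were miR-26b-5p, at 2.02 times just past the limit, and miR-30c-1-3p, miR-30e-5p and miR-26b-3p, which have 104 counts or fewer. No member was over 2-fold higher in library 2, as 6.47% of known miRNA entries were.

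Scaled to known miRNA counts, 7 of the 14 entries were higher in library 2. In CPM, only miR-30b-5p was higher there by more than counting error. With 92.9 CPM in library 1 against 125 CPM in library 2, its log2 ratio of library 1 over library 2 was -0.43 (-0.52 to -0.35), and -0.91 when scaled to known miRNA counts. The other entry higher in library 2 in CPM, miR-30d-3p, had -0.15 (-1.19 to 0.88), which includes 0. Of 73 known miRNA entries whose mean count reached 1000, 6 were higher in library 2 in CPM. A log2 ratio as low as that of miR-30b-5p was found in 2 of them, itself included. This minimum was chosen after the value of miR-30b-5p was seen. In contrast, miR-26a-5p had a log2 ratio of 0.63 (0.57 to 0.68) and miR-26b-5p of 1.01 (0.94 to 1.09), and miR-30d-5p, of the same family as miR-30b-5p, of 0.32 (0.22 to 0.43), which turns to -0.16 when scaled to known miRNA counts.

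**Figure D4:**
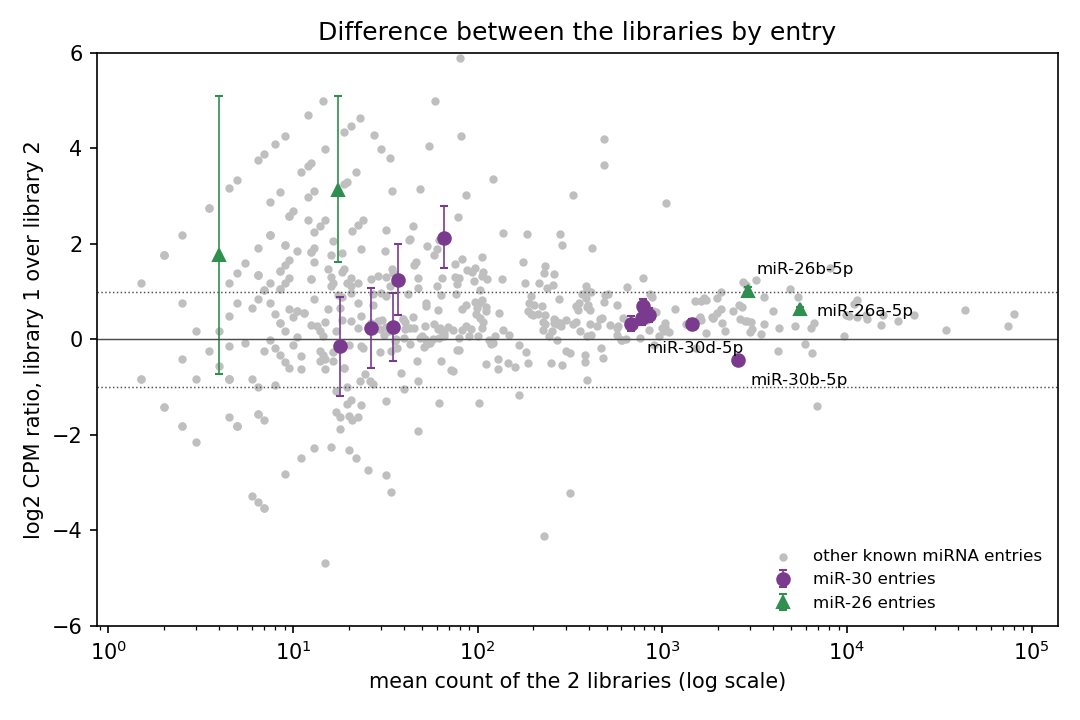
Log2 ratio of CPM, library 1 over library 2, against the mean count (log axis) for each known miRNA entry, with grey points for other miRNAs, purple circles for miR-30 and green triangles for miR-26, and exact 95% intervals of counting error. Dotted lines mark 2-fold, and 3 entries beyond 6 on the log2 scale are not drawn. Of the 4 labelled members, miR-30b-5p is at -0.43 and miR-26b-5p at 1.01, just past the upper dotted line.

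The ratio of the whole family depended on this entry. For miR-30 in sum, the log2 ratio of library 1 over library 2 was 0.15 (0.10 to 0.20), and without miR-30b-5p it was 0.46 (0.40 to 0.52), close to the 0.45 of known miRNA entries. For miR-26 it was 0.76 (0.72 to 0.81). Of the 7 marker lists, 6 were also higher in library 1 in CPM, as were 77.8% of the 433 known miRNA entries. All known miRNA counts in sum had a log2 ratio of 0.48. A list with a smaller ratio therefore held a smaller share of those counts in library 1. Log2 ratios of the lists were 0.77 for red blood cells, 0.76 for leukocytes, 1.26 for liver and 0.46 for smooth muscle. The X-linked testis list had 0.48 and miR-202 had 0.15. The germ cell list had -0.04, but its members differed. In it, miR-449a-5p had 642 and 451 CPM in libraries 1 and 2. For miR-34c there were 3469 and 10341 counts of the 3p arm and 638 and 192 of the 5p arm. For miR-34b there were 2195 and 2201 counts of the 3p arm and 585 and 558 of the 5p arm. The part of these lists in the ratios of the families was not tested. Without miR-30b-5p, the sum of miR-30 was 236 CPM in library 1 and 172 CPM in library 2, below miR-26 in both. As a share of known miRNA counts, miR-30 made up 1.05% (1.03 to 1.07) and 1.32% (1.29 to 1.35) in libraries 1 and 2, so the direction of its difference, higher in library 1 in CPM and lower as this share, depends on the total it is set against. For miR-26 this share was 1.48% (1.45 to 1.51) and 1.22% (1.19 to 1.25), higher in library 1 on both scales. The cause of the difference in miR-30b-5p was not tested.

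By the same log2 ratio, the summed 5p arms of miR-30 had 0.03 and those of miR-26 0.76. Of 198 other known miRNA entries of mean count 100 or more, the 3 nearest to miR-30 were miR-140-5p with 32.8 and 32.0 CPM, miR-148a-3p with 27.2 and 27.0 CPM and miR-125b-5p with 41.9 and 40.2 CPM. The 3 nearest to miR-26 were miR-467d-5p with 10.3 and 6.08 CPM, miR-129-5p with 19.4 and 11.5 CPM and miR-146b-5p with 5.55 and 3.26 CPM. Such likeness rests on 2 libraries, and 10 of the 198 lie within 0.05 of each family.

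Outside the families, miR-384-5p carries the seed of the miR-30 5p arms and had 1 count in library 1 and 11 in library 2. It adds next to nothing to the seed, since the summed miR-30 5p arms had 5332 and 5918 counts. None of the RefSeq entries outside the family shared the seed of the miR-26 5p arms. Arms of miR-30b and miR-30d had no sequence in the RefSeq table used here, so their seeds were not compared. For the 3p arms with a sequence, the seed of miR-30a-3p and miR-30e-3p was found in no other entry of that table. The 3p arms of miR-30 summed to 86.6 and 58.7 CPM, nearly all of it from this pair. Outside the families, miR-7039-3p and miR-6932-3p carry the seed of the miR-26 3p arms, and miR-6958-5p carries that of the miR-30c 3p arms. None of these was among the known miRNA entries listed for both libraries.

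The Rfam precursor entries hold tags that were given to a hairpin family rather than to a named miRNA. The mir-30 precursor had 174 and 168 CPM, or 0.529 and 0.566 counts per count of the 11 miR-30 entries. The mir-26 precursor had 144 and 83.2 CPM, or 0.310 and 0.304 counts per count of the miR-26 entries. Library 1 over library 2 on the log2 scale gave 0.05 for the mir-30 precursor and 0.79 for mir-26, beside 0.15 and 0.76 for the named entries of the families. By the methods each tag has a single class, but all values come from the same 2 libraries.

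Motifs described as sorting miRNAs into exosomes of human T cells, GGAG and CCCU, were searched in the mature RNA as written 5′ to 3′. The motif GGAG was found in 2 of the 11 members with a sequence, miR-30c-1-3p and miR-30c-2-3p, where it lies within the seed, and in 14.2% of 1679 mature miRNAs of the RefSeq table. The motif CCCU was found in 0 of the 11 and in 11.4% of the table. The 2 members with GGAG were among the low ones, with 2.28 and 0.967 CPM of miR-30c-1-3p and 1.64 and 1.37 CPM of miR-30c-2-3p. A match is a description of these letters and was not tested against any other RNA fraction.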

How the data were processed

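Small RNA of testicular EVs was measured in 2 libraries of 1 condition on the BGISEQ-500 platform. The authors name Bowtie2 and cmsearch as the alignment tools. Where a tag matched several RNA classes, a fixed priority with miRBase at the top decided its class, and poor reads had been discarded beforehand. Versions, genome build and mismatch limit were not given in the sources used here. Deposited counts are whole numbers of tags per entry, not normalized. TPM values as deposited by the authors are RPM in unit, tags per 1000000 of a somewhat larger total without length correction, and served as an alternative only.

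Entries listed for both libraries were kept, so an entry listed for a single library would not appear. CPM were computed over the sum of the listed counts of the kept entries. Entries were analysed with a mean count of at least 10 where the libraries were compared. Intervals are exact Clopper-Pearson 95% intervals (SciPy 1.17.1). With 2 libraries of 1 group, no test was made, and the spread was read against that of all known miRNA entries. The calculations were tested on simulated data. Sequences and positions are from RefSeq (GRCm38.p6) and host genes from GENCODE M21.

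The text names every member, miRNAs with the seed of a member, the 3 entries nearest to each family in log2 ratio, Rfam precursors and, for scale, let-7 and miR-181. Members and lists, the marker lists included, were chosen with earlier results of these data known. Alternatives were the deposited TPM values, TMM (edgeR 4.0.16) and DESeq2 1.42.0 size factors (R 4.3.3), other denominators, pooled counts, either class alone, count minimums and each library left out.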

Additional observations from a re-analysis of the deposited data

How the results depend on the processing

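No paired analysis was possible because both libraries belong to the same condition. The setting without miR-30b-5p was chosen after seeing the data. With the left-out libraries set aside, 75 of 91 recomputed values stayed within the spread of the reported one, and 7 of 10 counts of entries within 1.5 times the reported count. The 75 include all 60 values of single entries under the deposited TPM values, TMM, DESeq2 size factors and pooled counts. Pooled counts could not have left this spread, since a pooled value lies between those of the 2 libraries. TMM and DESeq2 size factors scaled library 1 up and library 2 down by similar factors. A mean of the 2 libraries moves little under them, so staying within the spread says little about these settings.

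The level of miR-30 was 177 CPM with mature entries only and 136 CPM with hairpin entries only. It was 484 CPM with the Rfam precursor added and 204 CPM without miR-30b-5p. The level of miR-26 was 129 CPM with mature entries only, 241 CPM with hairpin entries only and 483 CPM with the Rfam precursor added. The last 2 of these count as within the spread only because the SD of miR-26 was wide, at 135 CPM. The share of both families in known miRNA counts was 1.60% over every miRNA class and 2.11% without miR-30b-5p. Without miR-30b-5p the 5p share of miR-30 was 64.6% and the ratio of miR-30 over miR-26 was 0.567. The log2 ratio of library 1 over library 2 turned to -0.33 for miR-30 per 1000000 known miRNA counts, and was 0.33 under TMM, 0.33 under DESeq2 size factors and 0.46 without miR-30b-5p. For miR-26 it was 0.29 per 1000000 known miRNA counts, 0.95 under TMM and 0.94 under DESeq2 size factors. TMM moved the median of all entries by 0.19 and DESeq2 size factors by 0.18, and the families moved by the same amounts. Per 1000000 known miRNA counts, 2 of the 14 members were over 2-fold apart, as were 27.9% of known miRNA entries, and 7 of the 14 were higher in library 1, as were 48.7% of known miRNA entries. At a mean count of at least 100, 1 of 8 members and 41 of 206 known miRNA entries (19.9%) were over 2-fold apart.

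With either library left out, the level was 297 to 329 CPM for miR-30 and 274 to 465 CPM for miR-26, and the share of both was 2.53 to 2.54%. The 5p share was 73.7 to 80.2% for miR-30 and 99.6 to 99.9% for miR-26, miR-26a-5p over miR-26b-5p was 1.71 to 2.23, and miR-30 over miR-26 was 0.708 to 1.08. Entries under about 100 counts, most of them 3p arms, carry wide counting intervals.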
